A study of Mus musculus with 6 samples.

Results

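The 10 genes described here encode Toll-like receptors and the proteins that work with them: the receptors Tlr2, Tlr3, Tlr4, Tlr7 and Tlr9, the receptor-like Cd180 with its partner Ly86, the Tlr4 partners Ly96 and Cd14, and the adaptor Myd88. They were taken by name from 55359 annotated genes, and all 10 were found, each on a single row. The list was chosen by the difference of Cd180 and Ly86 between these same libraries, in TPM, and the other 8 genes were added as parts of the pathway. All S156A against WT values of the 10 genes are therefore a description, with no test. The study measured RNA in whole brain of E18.5 mouse embryos, late in gestation, and compared 3 S156A libraries with 3 WT libraries, each a pool of 3 brains. S156A embryos carry a knock-in allele of PME-1, the methylesterase of protein phosphatase 2A, in which a serine of the active site is replaced by alanine. WT embryos carry the wild-type form. The labels state no zygosity, strain, sex or restriction of the allele to a cell type. A pool does not show how single embryos vary, so every SD and p-value here is about the spread between these pools.

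Toll-like receptors bind molecules of microbes and of damaged cells. Tlr2 and Tlr4 sense bacterial surface lipids at the plasma membrane, Tlr3, Tlr7 and Tlr9 sense nucleic acids in endosomes, and all of these except Tlr3 signal through Myd88 towards NF-kB. Cd180 has a leucine-rich outer part like that of Tlr4 but no signalling domain of the Toll type, and it reaches the surface with Ly86 much as Tlr4 does with Ly96. In the brain these genes are known mainly from microglia, the resident macrophages, with Tlr3 also reported in astrocytes and neurons.

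Promoter windows of 300 bases, 250 before to 50 after the annotated start, were available from RefSeq (GRCm38.p6) for 6 of the 10 genes. Those of Cd180 and Ly86, the pair with the largest log2(TPM + 1) differences of the 10, and of Tlr3, whose TPM was alike in both groups, are shown so that they can be read side by side. Capitals mark matches on either strand to the core of sites bound by ETS factors such as the myeloid regulator PU.1 (GGAAGT, reverse ACTTCC, a motif chosen after the windows were seen) or to an NF-kB motif (GGGA, then 2 free bases, then TTCC). Position 0 is the annotated start. Cd180 is on the plus strand at chr13:102693297-102693596, Ly86 on the plus strand at chr13:37345095-37345394, and Tlr3 on the minus strand at chr8:45410331-45410630.
Cd180: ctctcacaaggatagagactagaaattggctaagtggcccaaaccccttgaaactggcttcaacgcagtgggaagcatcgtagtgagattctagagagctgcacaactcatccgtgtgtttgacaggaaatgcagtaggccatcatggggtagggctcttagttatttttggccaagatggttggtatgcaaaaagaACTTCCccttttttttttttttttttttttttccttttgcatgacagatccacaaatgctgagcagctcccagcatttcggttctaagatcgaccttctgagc
Ly86: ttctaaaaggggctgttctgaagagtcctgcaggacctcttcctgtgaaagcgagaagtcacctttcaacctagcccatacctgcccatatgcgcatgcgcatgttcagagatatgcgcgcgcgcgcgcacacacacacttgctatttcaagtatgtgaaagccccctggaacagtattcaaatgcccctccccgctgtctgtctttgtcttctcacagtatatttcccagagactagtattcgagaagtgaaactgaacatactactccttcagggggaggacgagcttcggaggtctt
Tlr3: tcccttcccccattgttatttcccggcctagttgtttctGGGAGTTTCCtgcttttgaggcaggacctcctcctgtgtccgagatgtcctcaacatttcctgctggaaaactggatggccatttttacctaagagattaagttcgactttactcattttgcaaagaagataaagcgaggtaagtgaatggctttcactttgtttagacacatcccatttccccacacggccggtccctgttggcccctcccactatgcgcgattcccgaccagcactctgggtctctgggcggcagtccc

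The Cd180 window held 1 ETS core, on the reverse strand, at positions -53 to -48, and a window of a second annotated Cd180 start close downstream shares it. The Ly86 window held none of the motifs searched. The Tlr3 window held 1 NF-kB match, at positions -211 to -202. Of 32851 promoter windows of this length, 23.8% held the ETS core, 3.20% its longer PU.1-type form GAGGAAGT, 1.47% the NF-kB motif and 3.44% the IRF motif (GAAA, then 2 free bases, then GAAA). The ETS core lies within the PU.1-type form. A match is only a run of letters in this window and not a measured site. The patterns are strict, so a window without a match can hold a near form of the same motif.

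For the other 3 genes with a match, 1 match each is shown as a 30-base excerpt, so that their motifs can be set beside those above. Tlr2 had an ETS core on each strand, the upstream one at positions -30 to -25. Tlr9 had the PU.1-type form, reverse strand, just downstream of the start. Myd88 had an IRF match at positions -40 to -31 and an ETS core across the start.
Tlr2, ETS core: tgctggcgaccgGGAAGTtcggggccctga
Tlr9, PU.1-type: gtgaaagtgtcACTTCCTCaattctctgag
Myd88, IRF: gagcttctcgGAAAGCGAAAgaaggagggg

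The libraries had an estimated 3.24 to 4.14 aligned gigabases in S156A and 3.15 to 3.37 in WT. Brain identity was plain in all 6, with the neuronal tubulin gene Tubb3 between 1368 and 2567 TPM (transcripts per 1000000, a level scaled to transcript length). Skeletal muscle RNA differed widely between libraries of both genotypes: the muscle actin gene Acta1 had TPM values of 2611, 17.7 and 18.7 in S156A replicates 1 to 3 and of 8.22, 333 and 2472 in WT replicates 1 to 3. All 17 microglial markers had a higher mean in S156A, and 13 of them were separate, with every S156A library above every WT library. P2ry12, Siglech, Tmem119 and Olfml3 overlapped between the groups. Tmem119 was highest in the muscle-rich libraries, at 41.6 TPM in S156A replicate 1 and 28.3 TPM in WT replicate 3. The summed level of the 17 was 553 to 646 TPM in S156A and 183 to 300 TPM in WT. Of the 7 border macrophage markers all had a higher mean in S156A, but only 1 was separate. Their sums were 86.2 to 119 TPM in S156A and 35.3 to 93.5 TPM in WT. Some neuronal and astrocyte markers differed too, but not all in the same direction. Of 8 neuronal markers 3 were separate with S156A lower, while 2 of the 8 had a higher mean in S156A. Their sums overlapped, at 2457 to 3560 TPM in S156A and 3320 to 4641 TPM in WT. Of 7 astrocyte markers 5 had a higher mean in S156A, and 3 were separate with S156A higher. Their sums overlapped too, at 1518 to 2173 TPM in S156A and 1267 to 1815 TPM in WT. Over all 18893 tested genes, 7.05% were separate with S156A lower and 13.7% with S156A higher. Fewer cells of a type and less RNA per cell cannot be told apart in whole-tissue RNA.

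Cd180 and Ly86 were several-fold higher in S156A brains than in WT brains, Tlr2 and Cd14 were higher in every S156A library than in any WT library, and Tlr3 was at about the same TPM in both groups. Every one of the 10 genes had a higher mean log2(TPM + 1) in S156A, but for Tlr3 the sign turned with a trimmed-mean or a quantile scaling. The groups did not overlap for 6 of the 10, Cd180, Ly86, Tlr2, Cd14, Tlr7 and Tlr9, in each case with S156A higher. Among 36715 genes above 0 in at least 1 library, 8.63% had such a separation with S156A higher and 5.12% with S156A lower. Of the 7 with a mean TPM of at least 1, 4 were separate with S156A higher and 0 with S156A lower, where 13.7% and 7.05% of tested genes were. Nothing is read from that count, since Cd180 and Ly86 chose the list, and Cd180 and Cd14 reached that mean through S156A. The median difference of the 10 was 0.98 on the log2(TPM + 1) scale, against 0.02 over those 36715 genes.

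**Figure D1:**
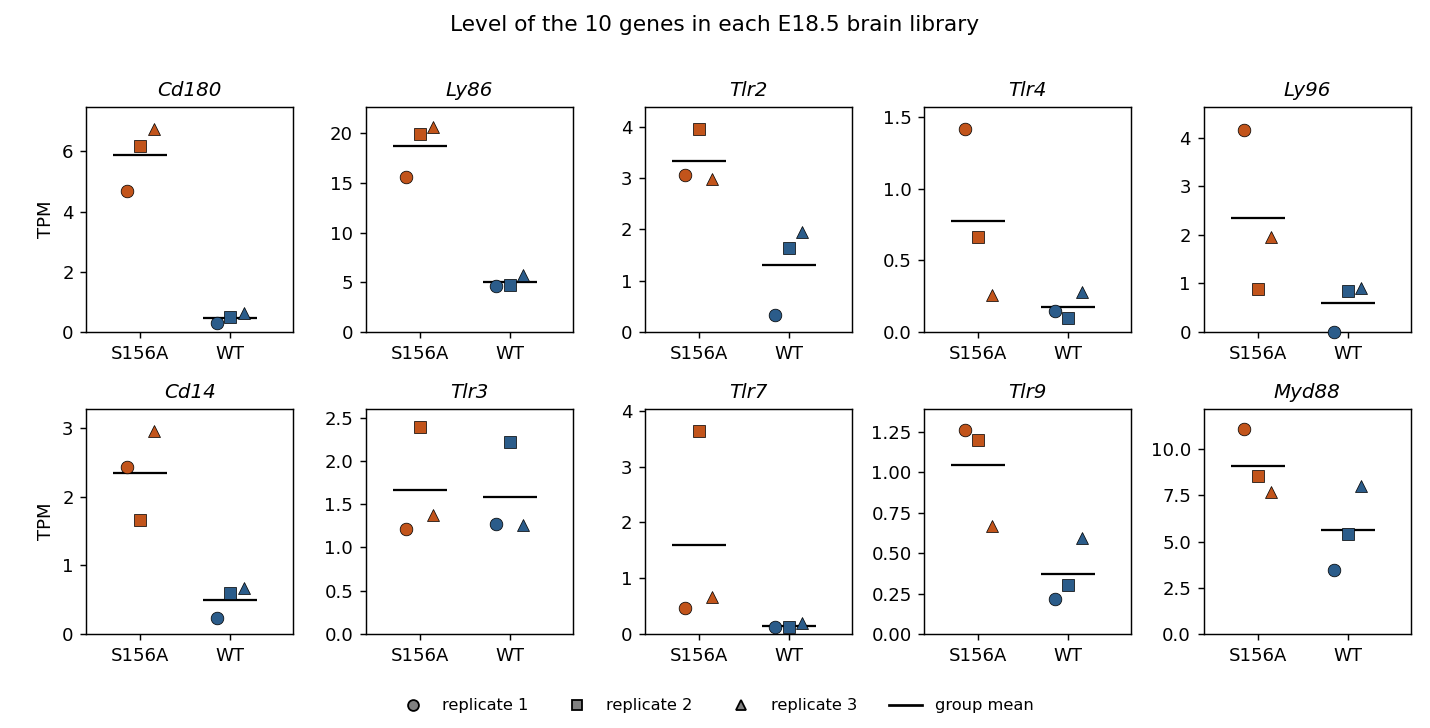
TPM of each of the 10 genes in the S156A libraries (left) and the WT libraries (right), with 1 symbol per replicate and a line at the group mean; each panel has its own axis from 0. The 3 S156A libraries lie between 4.70 and 6.74 TPM for Cd180 and the 3 WT libraries between 0.295 and 0.627 TPM, while the groups overlap for Tlr3, Tlr4, Ly96 and Myd88.

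Cd180 (ENSMUSG00000021624.10, chromosome 13, 102830066 to 102876137, plus strand) had TPM values of 4.70, 6.16 and 6.74 in S156A replicates 1 to 3, against 0.295, 0.513 and 0.627 TPM in WT replicates 1 to 3. All S156A values were far above all WT values. The means were 5.87 ± 1.05 TPM in S156A and 0.478 ± 0.169 TPM in WT (SD, n = 3 each), a ratio of 12.3, and the log2(TPM + 1) difference was 2.21 (SE 0.26). The WT values rest on few reads: mean coverage per base was 3.66, 4.45 and 6.32 in S156A and 0.309, 0.371 and 0.723 in WT. The files also list loci assembled from the reads without regard to gene names, and these show the same thinness. Such loci began at the annotated start of Cd180 in all 3 S156A libraries and spanned 13398, 13398 and 46072 bases. In WT they spanned 656, 10698 and 3440 bases and began inside the gene, in WT replicate 2 by only a few bases. The short WT replicate 1 locus lies in the stretch shared with Mast4. It was listed at 22.6 TPM with a coverage of 1.43. The S156A loci were at 4.62, 8.12 and 7.91 TPM with coverages of 3.97, 4.90 and 6.29, so the TPM of so short a locus is not comparable. The 3' part of the annotated Cd180 span overlaps the kinase gene Mast4 on the opposite strand by 7144 bases. Mast4 was at 9.87, 15.0 and 1.78 TPM in S156A and at 4.60, 15.6 and 17.1 TPM in WT. Within WT the order of the libraries was the same for Mast4 and Cd180, and within S156A it was not. The part of Mast4 reads in the Cd180 values was not tested.

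Ly86 (ENSMUSG00000021423.7, chromosome 13, 37529184 to 37603012, plus strand), the secreted partner that Cd180 needs to reach the cell surface, was the most abundant of the 10 by TPM in S156A. It had 15.6, 19.9 and 20.6 TPM in S156A and 4.59, 4.70 and 5.75 TPM in WT, with no overlap. Its log2(TPM + 1) difference was 1.71 (SE 0.19) and the ratio of the means was 3.73. The assembled locus spanned the whole annotated gene in all 6 libraries, with coverage of 6.06 to 9.25 in S156A and 1.50 to 2.07 in WT. Because Cd180 differed more than Ly86, the TPM of Ly86 was 3.32, 3.23 and 3.05 times that of Cd180 in S156A, against 15.6, 9.16 and 9.17 times in WT. The WT ratios have a Cd180 coverage below 1 read per base as their base. Scaled to the TPM of the library, Ly86 coverage came to 4.87, 6.21 and 6.42 in S156A and 1.43, 1.48 and 1.80 in WT. These values did not overlap but lay far below the TPM of Ly86. On that measure Myd88 came to 8.46, 6.51 and 5.87 in S156A, and Cd180 to 2.79, 4.55 and 4.38. The rank of Ly86 and its ratio to Cd180 thus depend on how the level is taken.

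Tlr2 (chromosome 3, 83743579 to 83749074, minus strand), the receptor for bacterial lipoproteins, was at 3.07, 3.96 and 2.98 TPM in S156A and at 0.336, 1.64 and 1.96 TPM in WT. The groups did not overlap, though WT replicate 1 lay far below the other 2 WT libraries. The means were 3.34 ± 0.545 TPM in S156A and 1.31 ± 0.858 TPM in WT (SD, n = 3 each), with a log2(TPM + 1) difference of 0.98 (SE 0.36).

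The lipopolysaccharide receptor parts were all scarce. Tlr4 (chromosome 4, 66745821 to 66848521, plus strand) was at 1.42, 0.661 and 0.255 TPM in S156A and at 0.148, 0.0955 and 0.280 TPM in WT. S156A replicate 3 lay within the WT range, so the groups overlapped. Ly96 (chromosome 1, 16758275 to 16779835, plus strand), which holds the lipid for Tlr4, was at 4.17, 0.890 and 1.96 TPM in S156A and was listed at 0 in WT replicate 1, with 0.852 and 0.910 TPM in WT replicates 2 and 3. Here S156A replicate 2 lay between the WT values. Cd14 (chromosome 18, 36858120 to 36859851, minus strand), the surface protein that hands lipopolysaccharide to Tlr4 and Ly96, was at 2.43, 1.66 and 2.96 TPM in S156A and at 0.236, 0.591 and 0.667 TPM in WT. For Cd14 all S156A libraries were above all WT libraries, with a log2(TPM + 1) difference of 1.15 (SE 0.29).

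The nucleic acid receptors differed in pattern from each other. Tlr3 (chromosome 8, 45848702 to 45864117, minus strand), the sensor of double-stranded RNA, was at 1.21, 2.40 and 1.38 TPM in S156A and at 1.27, 2.22 and 1.26 TPM in WT. Its group ranges nearly coincided, with a log2(TPM + 1) difference of 0.04 (SE 0.30). Mean coverage gave another picture, with 1.53, 2.25 and 1.97 reads per base in S156A and 1.20, 0.903 and 1.17 in WT, and there the groups did not overlap. Scaled to the TPM of the library, that coverage came to 1.17, 2.30 and 1.37 in S156A and 1.14, 0.832 and 1.02 in WT, so the gap between the closest libraries was small. The high TPM of WT replicate 2 was not matched in its coverage. Tlr9 (chromosome 9, 106099797 to 106104082, plus strand), the sensor of unmethylated CpG DNA, was at 1.26, 1.20 and 0.667 TPM in S156A and at 0.214, 0.301 and 0.592 TPM in WT, so the groups were separate by a small margin. Tlr7 (chromosome X, 166087925 to 166113554, minus strand), the sensor of single-stranded RNA, was at 0.474, 3.63 and 0.669 TPM in S156A and at 0.130, 0.124 and 0.195 TPM in WT.

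The high Tlr7 value of S156A replicate 2 was not matched in coverage, which was 0.623, 0.842 and 0.963 reads per base in S156A replicates 1 to 3 and 0.136, 0.135 and 0.225 in WT. On that measure the 3 S156A libraries were alike and all above WT. The locus assembled at Tlr7 spanned 25628 bases in S156A replicate 2 and short pieces in S156A replicates 1 and 3, and no locus was assembled there in WT. Tlr7 lies on the X chromosome, and the pools differed in the X-inactivation transcript Xist, at 239, 236 and 91.6 TPM in S156A and 135, 0.0465 and 68.8 TPM in WT. The part of the sex mix in the Tlr7 values was not tested.

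Myd88 (chromosome 9, 119165000 to 119170477, minus strand), the adaptor shared by the interleukin receptors of the same signalling family, was at 11.1, 8.53 and 7.68 TPM in S156A and at 3.46, 5.41 and 8.0 TPM in WT. The groups overlapped, since WT replicate 3 lay above S156A replicate 3, and the log2(TPM + 1) difference was 0.65 (SE 0.30). Myd88 overlaps Acaa1a on the opposite strand, and Acaa1a was far more abundant, at 128 to 146 TPM in S156A and 98.9 to 122 TPM in WT. The labels do not say whether strand was used to assign reads, so the Myd88 values are less certain.

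Muscle-rich libraries held the highest values of some of these genes. Tlr4, Ly96, Tlr9 and Myd88, 4 of the 10, were highest in S156A replicate 1 among S156A libraries and in WT replicate 3 among WT libraries, the libraries with most Acta1. The summed border macrophage markers were highest in the same libraries, at 119 and 93.5 TPM. Among WT libraries, 9 of the 10 genes were highest in WT replicate 3, all but Tlr3. Cd180 and Ly86 were thus highest in the muscle-rich library of WT, while among S156A libraries they were lowest in the muscle-rich S156A replicate 1. The part of this tissue in the values was not tested.

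The order of the genes by mean TPM differed between the groups. In S156A the order was Ly86, Myd88, Cd180, Tlr2, Cd14, Ly96, Tlr3, Tlr7, Tlr9 and Tlr4. The range of each of the first 4 lay apart from that of the next gene, while from Cd14 downwards neighbouring ranges overlapped. Tlr2 cleared Cd14 only narrowly, at 2.98 against 2.96 TPM, and Ly96, at up to 4.17 TPM, overlapped the range of Tlr2. In WT the order was Myd88, Ly86, Tlr3, Tlr2, Ly96, Cd14, Cd180, Tlr9, Tlr4 and Tlr7. The sole gap between neighbours in WT was that between Ly86 and Tlr3. Cd180 thus had rank 3 in S156A and rank 7 in WT. It made up 38.7%, 34.2% and 53.1% of the summed TPM of the 6 receptor genes in S156A replicates 1 to 3, against 12.3%, 10.5% and 12.8% in WT replicates 1 to 3. Among the 5 Toll-like receptors proper, Tlr3 made up 16.3%, 20.2% and 23.2% of the sum in S156A and 60.6%, 50.7% and 29.5% in WT. These are shares of TPM. The Tlr3 TPM of WT replicate 2 (2.22) and the Tlr7 TPM of S156A replicate 2 (3.63) were not matched in coverage. Scaled to the TPM of the library, that coverage came to 0.832 and 0.862. The gap between the groups in the Tlr3 share thus depends on how the level is taken.

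**Figure D2:**
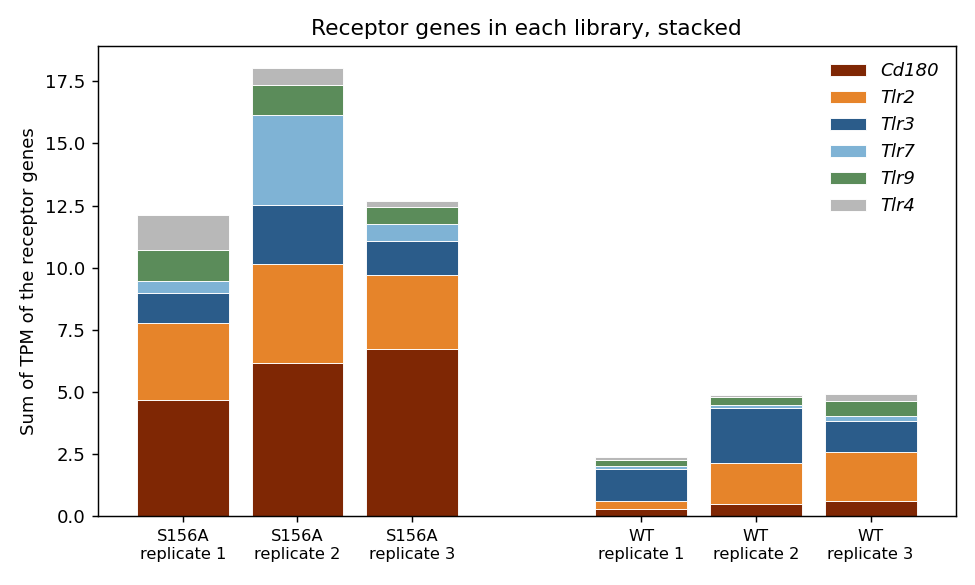
Summed TPM of Cd180, Tlr2, Tlr3, Tlr7, Tlr9 and Tlr4, stacked in 1 bar per library, with S156A replicates on the left and WT replicates on the right. The bars reach 12.1, 18.0 and 12.7 TPM in S156A and 2.40, 4.89 and 4.91 TPM in WT. The Tlr3 segment, 1.21 to 2.40 TPM in S156A and 1.26 to 2.22 TPM in WT, is of similar height in both groups. The Tlr3 segment of WT replicate 2 and the Tlr7 segment of S156A replicate 2 were not matched in coverage.

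In the fit across all genes, 7 of the 10 had a mean TPM of at least 1 and entered. Tlr4, Tlr7 and Tlr9 did not, and 3 of the 7, Cd180, Cd14 and Ly96, passed through their S156A values, with a WT mean below 1. Limma called 2 of the 7, Cd180 and Ly86, both higher in S156A, while 0.159% of all 18893 tested genes were called in either direction and 0.0847% were called higher and 0.0741% lower. Since the calls themselves put both genes on the list, nothing follows from that count. The calls over all genes were 16 higher and 14 lower with TPM, and 15 higher and 36 lower after scaling by a trimmed mean. Both member calls held without WT replicate 3 and were lost (0 called, limma) when any of the other 5 libraries was left out. In those 5 fits 3 or 4 of the 7 had an unadjusted limma p under 0.05, as had 1542 to 2423 of the 18893 tested genes. With the replicate number as a block, 0 of the 7 were called. There 4 of the 7 and 1880 of the 18893 had an unadjusted limma p under 0.05. Nothing is read from these counts of members either, for the same reason.

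The microglial markers give a scale on which to read these levels. Their mean log2(TPM + 1) over 17 genes was 4.48 ± 0.06 in S156A and 3.27 ± 0.28 in WT (SD, n = 3 each), a difference of 1.21. Relative to that mean, Cd180 was at -1.71 in S156A and -2.71 in WT, a difference of 1.00, and Ly86 was at -0.19 in S156A and -0.69 in WT, a difference of 0.49. For both genes all S156A libraries lay above all WT libraries on this relative scale. That holds against the mean of the markers and not against each of them. The median log2(TPM + 1) difference of the 17 was 1.40, but Cx3cr1 differed by 2.07 and Fcrls by 1.74. Both lay above the 1.71 of Ly86 and below the 2.21 of Cd180. Trem2 and Tyrobp also differed by more than Ly86 and by less than Cd180. Trem2 was at 21.3, 26.4 and 34.4 TPM in S156A and 6.83, 4.79 and 7.45 TPM in WT. Tyrobp was at 60.6, 49.1 and 51.2 TPM in S156A and 11.8, 11.7 and 25.4 TPM in WT. Tlr3 was at -3.10 in S156A and -1.92 in WT, a difference of -1.18, with all S156A libraries below all WT libraries. These 3 separations also held with a pseudocount of 0.1 and with Cx3cr1, Trem2 and Fcrls taken out of the marker list. The differences were then 2.06 and 1.15 for Cd180, 0.53 and 0.64 for Ly86, and -1.29 and -1.03 for Tlr3. The shorter list shifts the difference of every gene upwards by the same amount. For Cd180 and Ly86 it could therefore only widen the difference, and nothing is read from it for them. A lower pseudocount widens the difference of a gene with low WT values, such as Cd180 at 0.295 to 0.627 TPM. Both genes were also chosen by their difference in these TPM values, so nothing is read from the pseudocount for them either. With levels taken from coverage in place of TPM, a comparison added after seeing the data, Cd180 (0.58) and Tlr3 (-0.82) kept their separation, and Ly86 did not (0.22, overlapping groups).

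The other 7 genes differed less clearly from the markers. Tlr2, Cd14, Ly96 and Tlr7 overlapped between the groups, with relative differences of -0.23, -0.06, -0.20 and -0.24. With a pseudocount of 0.1 these differences turned to 0.22, 0.75, 0.83 and 0.91, and the groups still overlapped. Those of Cd14, Ly96 and Tlr7 were then larger than the 0.53 of Ly86. Tlr4, Tlr9 and Myd88 had relative differences of -0.66, -0.64 and -0.56 with groups that did not overlap, S156A lower, but with a pseudocount of 0.1 the groups overlapped for all 3 and the difference of Tlr4 was 0.15. With levels from coverage, Tlr4 (-0.86), Tlr9 (-0.62), Myd88 (-0.66) and Tlr7 (-0.66) were separate with S156A lower, so these 4 depend on how the level is taken. On the log2(TPM + 1) scale a gene near or below 1 TPM differs less than an abundant gene with the same ratio.

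**Figure D3:**
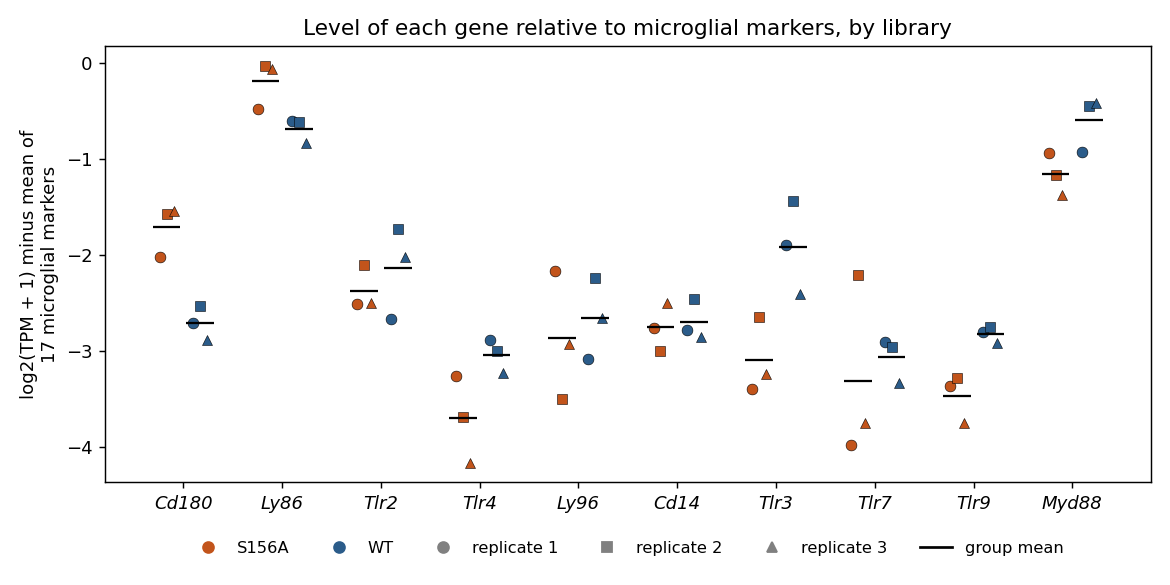
Log2(TPM + 1) of each gene minus the mean of 17 microglial markers in the same library, S156A to the left of WT within each gene, with 1 symbol per replicate and a line at the group mean. Cd180 and Ly86 lie higher in S156A, by 1.00 and 0.49, and Tlr3 lies lower, by -1.18.

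Genes whose levels ran most like Cd180 over the 6 libraries included the microglial genes Cx3cr1 and Fcrls, with Soat1, a cholesterol esterifying enzyme, and the lysosomal protease gene Ctsb (Pearson r of log2(TPM + 1) from 0.995 to 0.999). Those most like Ly86 included Jun, Cx3cr1, Fcrls and Bcas1 (r from 0.993 to 0.997), of which Bcas1 marks oligodendrocytes. The points share library and depth and fall into the 2 genotypes, so these values mostly restate the difference between groups. Cd180 and Ly86 are also B-cell genes. The 7 B-cell markers summed to 3.54 to 7.27 TPM in S156A and 2.38 to 3.48 TPM in WT, so the sum was higher in every S156A library, while 0 of the 7 single genes were separate between the groups. Ms4a1, a surface marker of mature B cells, reached at most 0.0447 TPM, and the highest value of the list was 3.15 TPM, for Vpreb1 in S156A replicate 1. The part of B cells in the Cd180 and Ly86 values was not tested.

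The 7 other Toll-like receptors were at or near the lower limit of these data. Tlr12 was the only one with a mean TPM of at least 1, at 1.41, 1.53 and 2.04 TPM in S156A and 1.62, 1.40 and 0.893 TPM in WT, and it did not differ beyond the spread (log2 difference 0.21, SE 0.27, limma adjusted p = 0.77). Tlr1, which pairs with Tlr2, was at 1.66, 0.736 and 2.00 TPM in S156A and 0.170, 0.360 and 0.815 TPM in WT. Tlr6, another partner of Tlr2, was at 0.862, 0.408 and 0.796 TPM in S156A and 0.534, 0.377 and 0.352 TPM in WT. For both partners the groups overlapped. Tlr13, a mouse sensor of bacterial ribosomal RNA, was at 0.948, 0.624 and 1.60 TPM in S156A and 0.0600, 0.406 and 0.703 TPM in WT, and Tlr5, the flagellin receptor, was between 0.237 and 0.854 TPM in S156A and between 0.163 and 0.928 TPM in WT. Tlr8 reached at most 0.138 TPM, and Tlr11 was listed at 0 in all but S156A replicate 1.

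The rest of the pathway was taken as 8 lists by role, the 7 receptors above included, with 81 genes in all. Of the 57 with a mean TPM of at least 1, limma called 0, and 15 had an unadjusted p under 0.05, all higher in S156A, where 8.41% of all tested genes were higher at that level. Of these 15, 4 (Irf5, Irf7, Ccl3 and Cd86) had a WT mean below 1 TPM and entered the test through their S156A values, so the count is not set against that share. Their background is the same 0.159% of tested genes called. Of the 81, 67 had a higher mean in S156A, and 58 and 60 after trimmed-mean and quantile scaling. Of all tested genes 61.7% had a higher mean in S156A, and of all genes above 0 in at least 1 library 55.6%. The median log2 difference was 0.22 over the 81 genes, against 0.09 over all tested genes.

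Among genes for folding and trafficking of the receptors, Unc93b1, the chaperone that carries Tlr3, Tlr7 and Tlr9 to endosomes, was at 21.4, 25.3 and 22.2 TPM in S156A and 6.54, 9.41 and 10.8 TPM in WT. It was higher in all S156A libraries and did not pass the threshold (log2 difference 1.30, SE 0.20, limma adjusted p = 0.070). Lgmn, an endosomal protease that trims these receptors, had the smallest p of the 57, with 128, 134 and 143 TPM in S156A and 68.0, 78.8 and 84.2 TPM in WT (limma adjusted p = 0.062). Hsp90b1, the folding chaperone of most Toll-like receptors, differed by 0.24 on the log2 scale (SE 0.09, limma adjusted p = 0.33). The list held 9 genes, of which 8 were tested and 0 called.

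Of the 5 TIR adaptor genes 4 were tested and 0 called. Pik3ap1, an adaptor that links these receptors to phosphoinositide 3-kinase, was at 3.95, 3.21 and 4.32 TPM in S156A and 0.773, 0.821 and 1.54 TPM in WT (limma adjusted p = 0.13). Sarm1, which is mostly neuronal and acts in axon degeneration, was at 38.3, 45.7 and 36.7 TPM in S156A and 54.8, 49.1 and 42.9 TPM in WT (log2 difference -0.28, SE 0.14). Ticam1, the adaptor of Tlr3, was at 7.69, 5.39 and 3.43 TPM in S156A and 3.41, 3.78 and 5.85 TPM in WT, with overlapping groups.

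All 16 kinase and ubiquitin enzyme genes were tested and 0 were called. Peli1, Tbk1 and Ikbkb had the smallest p-values of the list, with log2 differences of 0.52 (SE 0.15), 0.40 (SE 0.12) and 0.26 (SE 0.12). Their limma adjusted p-values were 0.23, 0.24 and 0.39. Among the 9 transcription factors, all tested and 0 called, Irf8, a factor of myeloid identity, was at 5.58, 5.83 and 8.27 TPM in S156A and 0.542, 0.986 and 2.02 TPM in WT (log2 difference 1.83, SE 0.32, limma adjusted p = 0.086). Irf7 and Irf5, which act below Tlr7 and Tlr9, had log2 differences of 0.94 (SE 0.29) and 0.84 (SE 0.34).

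Of the 11 inhibitor genes 8 were tested and 0 called, with Cyld, Tnfaip3 and Nfkbia at log2 differences of 0.46, 0.54 and 0.35. Among the 17 cytokine and enzyme genes that the pathway induces, 11 stayed below 1 TPM in every library, among them Tnf, Il1b and Il6, and Ifnb1 was listed at 0 throughout. The 4 genes of this list that were tested gave 0 calls. Ccl3, a chemokine gene, was at 6.15, 4.77 and 4.75 TPM in S156A and 0.517, 1.44 and 0.418 TPM in WT (log2 difference 1.83, SE 0.30, limma adjusted p = 0.077). Cd86, a costimulatory surface protein, was at 4.64, 4.59 and 1.32 TPM in S156A and 0.124, 0.385 and 0.506 TPM in WT (limma adjusted p = 0.18), and Cd40, another such protein, had a log2 difference of 0.67 (SE 0.30).

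All 7 genes for reported endogenous ligands were tested and 0 were called. Tnc and Vcan, matrix proteins of the developing brain, had log2 differences of 0.39 (SE 0.11) and 0.48 (SE 0.14), and their limma adjusted p was 0.22 in each case. For S100a9, a neutrophil protein, the log2 difference was 0.91 with an SE of 0.37 (limma adjusted p = 0.35). The 9 markers of monocytes and neutrophils summed to 8.15 to 17.3 TPM in S156A and 4.77 to 13.8 TPM in WT.

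**Figure D4:**
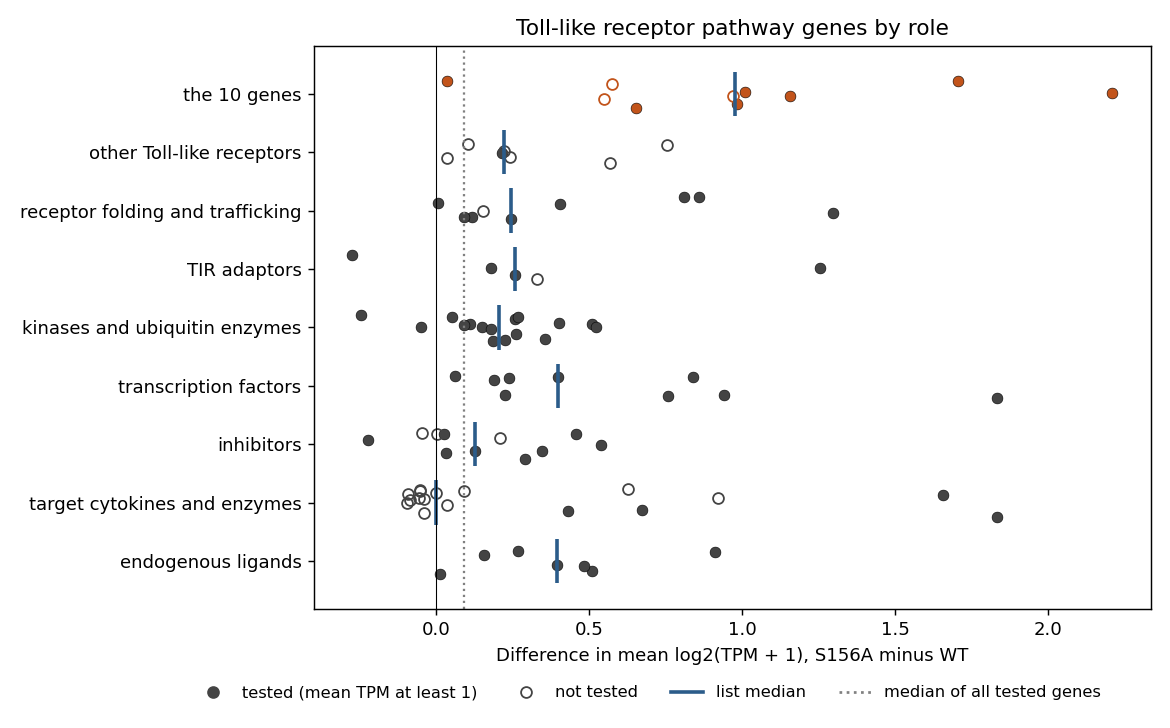
Difference in mean log2(TPM + 1), S156A minus WT, for each gene of the pathway, 1 row per role with the 10 genes on top; filled points were tested, open points had a mean TPM below 1, blue bars are list medians and the dotted line is the median of all tested genes, 0.09. The 10 genes have a median of 0.98, and the medians of the other lists lie between 0 and 0.40.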

How the data were processed

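Total RNA from whole E18.5 mouse brain was sequenced in 6 libraries, each from 3 brains combined in a tube, after directional MGIEasy preparation, per the labels' protocols. StringTie 2.1.5, HISAT2 2.2.1 and Trim Galore 0.6.6 are named in the submitters' processing notes. The deposited TPM and FPKM values are StringTie gene abundances, and the coverage column is the mean read depth per base of a gene, per the file headers. TPM was read as a signal on a linear scale, since the annotated rows and the assembled rows of a deposited table each add up to nearly the same total. Nothing in the labels states the annotation release or strand setting. The tables hold no counts, so no counting intervals can be given, and depth was estimated as the commonest ratio of coverage to FPKM.

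A human build, hg38, is named in the processing notes, while all identifiers are of mouse genes. Of 38133 genes matched by symbol, 3.17% had a start no more than 1000 bases from that in GRCm38, and the scaffold names of the files include some that GRCm39 uses. Positions are therefore those of the files, with GRCm39 inferred. Promoter windows come from RefSeq in GRCm38.p6 and were not joined to them.

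Groups and replicate numbers come from the sample titles. The 10 genes, the pathway lists, the motifs and the tests were chosen with earlier results of these data known. Rows of the same gene identifier were summed, and 55359 annotated genes were kept. Tests covered genes averaging 1 TPM or more and were run on log2(TPM + 1) with limma 3.58.1 in R 4.3.3 (two-sided, eBayes with trend, Benjamini-Hochberg over 18893 genes, called at an adjusted p under 0.05), after the step was tested on simulated data. Named genes were the 10, the 7 other Toll-like receptors, up to 3 genes per pathway list with the smallest unadjusted p, and the 5 tested genes whose log2(TPM + 1) correlated best with Cd180 and with Ly86. Some genes that this last rule names are not reported here. Alternatives were trimmed-mean and quantile scaling, FPKM, other pseudocounts (0.1 and 5), no filter or one at 5 TPM, eBayes without trend or robust, the replicate number as a block, and each library left out. The omission of both muscle-rich libraries, the ETS core motif and levels from coverage (coverage times the commonest TPM to coverage ratio of a library) were added after seeing the data. Same-numbered libraries did not deviate together (correlations of -0.55, 0.19 and -0.41), so the numbers were not read as pairs.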

Additional observations from a re-analysis of the deposited data

How the results depend on the processing

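The count of 2 calls among the 10 genes, Cd180 and Ly86, held without WT replicate 3 and was 0 when any other single library was left out. It was 1 with FPKM (Ly86), 1 at a mean TPM of at least 5 (Ly86) and 0 with no filter. It lay between 0 and 2 over the fits that each left out a library. It was 0 without WT replicate 3 and S156A replicate 1 together, an omission chosen after seeing the data. No call among these genes or the wider pathway was lower under any setting tried. The replicate number as a block gave 0 calls of the 10 genes and 0 higher and 0 lower of all genes, with 1880 genes and 4 of the 10 at an unadjusted p under 0.05.

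Over all tested genes, the 16 higher calls became 0 with no filter, 7 without the trend and 0 without both libraries, and ran from 0 to 35 over single omissions. The 14 lower calls became 31 with FPKM, 0 with no filter, 36 with the trimmed mean, 36 with quantile normalization, 9 without the trend, 22 with robust estimation and 0 without both libraries, and ran from 0 to 35.

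The median difference of the 10 genes, 0.98, was 0.52 with FPKM, 1.72 with a pseudocount of 0.1, 0.39 with 5 and 0.64 with levels from coverage, an alternative chosen after seeing the data, and ran from 0.67 (without WT replicate 1) to 1.09 over single omissions. Their median relative to microglial markers, -0.24, was 0.38 with a pseudocount of 0.1 -0.55 with levels from coverage, and ran from -0.46 without S156A replicate 2 to -0.11 without WT replicate 2. The difference of Tlr3 changed sign with the trimmed mean (-0.027), quantile normalization (-0.073) and the omission of S156A replicate 2 (-0.15), WT replicate 1 (-0.05) or WT replicate 3 (-0.05), and ran up to 0.20 without WT replicate 2. The causes were not tested. Several of these genes had under 1 read per base, which limits every value given for them.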
